A study of Mus musculus with 9 samples.

Results

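The genes described here are 10 of the 32594 rows of the deposited count table of mouse hindlimb skeletal muscle: the ligands Bmp4 and Gdf5, the receptors Bmpr1a and Bmpr2, the signal carrier Smad1, the inhibitors Smad6 and Smad7, and the target genes Id1, Id2 and Id3. They were chosen by name as a set of genes of bone morphogenetic protein (BMP) signalling and its Id targets, and all 10 held enough counts to be tested. RNA had been measured in 9 libraries on the FVB/N background, 5 labelled wild type and 4 labelled SMN delta 7. The second group, called SMA here, is a mouse model of spinal muscular atrophy, in which too little survival motor neuron protein leads to loss of motor neurons and wasting of muscle. The labels give no age, sex, litter, allele list or transgene promoter for either group, and nothing in them ties a library to an animal of its own. The p-values therefore weigh group differences against the spread among these libraries, part of which may be technical. As background, the model is known to lack mouse Smn1 and to carry human SMN2 and a transgene of human SMN without the exon named in its label.

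BMP ligands bind a pair of receptor types at the cell surface, after which the type I receptor phosphorylates Smad1, Smad5 or Smad9. These Smads join Smad4 and enter the nucleus, where they switch on genes that include the Id genes and, as a feedback, the inhibitory Smads. In muscle, BMP signalling is known to preserve mass and to slow wasting after the nerve is lost, with Gdf5 as a ligand made by denervated fibres and the ubiquitin ligase gene Fbxo30 as a target held down by the pathway. Id proteins bind the E proteins with which myogenic factors pair, and so hold back differentiation.

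Of the 10 members, 1 rose in SMA, 0 fell and 9 did not pass (quasi-likelihood test of edgeR, Benjamini-Hochberg adjusted over 15873 genes, threshold 0.05). Over all genes tested 54.9% passed, with 27.7% that rose and 27.2% that fell, so the members' share of 1 in 10 lay below that background. Of all calls 50.4% were rises, and 74.7% under scaling to total counts. The median size of the members' log2 fold changes was 0.19, against 0.39 over all genes tested, and their median log2 fold change was 0.032 against 0.0060. Without adjustment edgeR gave 1 member that rose and 3 that fell, and the share of all genes at that threshold is not given here. DESeq2 called 1 that rose and 2 that fell with adjustment, and limma-voom 1 and 1. Over all genes DESeq2 called 4473 that rose and 4447 that fell of 23215 with a p-value, and limma-voom 4357 and 4318 of 15873. The DESeq2 total includes genes left without an adjusted p, so its share is not comparable with the other tools. The member that passed was Smad1, at 1.23-fold, and the groups overlapped for the other 9, where 44.2% of all genes had groups that did not overlap.

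Stretches upstream of 4 members are printed because Smad1 passed, Smad6 had the lowest adjusted p among the rest, and Bmpr1a and Id2 hold a GC-rich motif that BMP-activated Smads are known to bind. RefSeq start-site windows of 250 bases on GRCm38.p6 matched 7 of the 10 members, and Gdf5, Smad7 and Id1 had no entry. Bases inside exons of GENCODE M21 are left out. The Bmpr1a and Id2 stretches lie upstream of a RefSeq start site but inside the gene as drawn in GENCODE M21. Those genes reach to 34503341 and 25097140, while the stretches of Smad1 and Smad6 lie outside their genes. The stretches are chr8:79399519-79399678 for Smad1, chr9:64022060-64022309 for Smad6, chr14:34502688-34502796 for Bmpr1a and chr12:25096254-25096342 for Id2, all on the minus strand and written 5′ to 3′, with capitals at matches to GGCGCC, to the Smad box GTCT and to the E box form CAGCTG.
Smad1: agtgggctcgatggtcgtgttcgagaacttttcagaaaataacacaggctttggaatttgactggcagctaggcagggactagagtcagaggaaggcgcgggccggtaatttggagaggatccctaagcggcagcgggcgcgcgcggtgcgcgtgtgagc
Smad6: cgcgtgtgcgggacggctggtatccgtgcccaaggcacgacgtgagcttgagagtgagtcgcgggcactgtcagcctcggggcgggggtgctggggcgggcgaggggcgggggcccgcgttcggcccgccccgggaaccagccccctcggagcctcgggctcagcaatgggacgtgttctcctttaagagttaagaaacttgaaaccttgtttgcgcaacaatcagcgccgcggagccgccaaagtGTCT
Bmpr1a: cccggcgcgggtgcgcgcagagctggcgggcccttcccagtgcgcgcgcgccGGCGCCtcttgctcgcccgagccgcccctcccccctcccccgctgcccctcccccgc
Id2: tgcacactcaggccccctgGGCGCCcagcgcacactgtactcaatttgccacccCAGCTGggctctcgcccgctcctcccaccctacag

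On both strands of the 250 bases before the RefSeq start site, GGCGCC was found in the windows of 3 of the 7 members, Bmpr2, Bmpr1a and Id2. It was in 9.59% of 32851 windows of this length. Those member windows were 64%, 78.8% and 62.8% G or C. That share was not measured over all windows, so the comparison is not matched for base content. The windows of Bmpr2 and Id3, like those of Bmpr1a and Id2, lie inside the gene as drawn in GENCODE M21. The Smad box GTCT was found for 4 of 7, Id3, Smad6, Id2 and Bmp4, and in 82.9% of all windows. CAGCTG, a form of the E box to which E proteins bind, was in 1 member window, that of Id2, and in 13% of all windows. CACGTG, the other form searched, was in the window of Bmp4 and in 6.02% of all windows. The window of Smad1 held none of these 4 motifs.

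Depth ranged from 24917665 to 35087722 counts per library. Levels are given as CPM, counts-per-million of a library size under trimmed-mean (TMM) scaling, so that 1 CPM stood for 22.7 to 37.6 counts. Smn1, the gene of the survival motor neuron protein, lay between 11.1 and 13.8 CPM in the wild type libraries and between 1.40 and 2.72 CPM in the SMA libraries, and so matched the labels. By Y-linked genes and Xist, 4 wild type libraries and 1 SMA library, SMA 2, were male, and wild type 3 and the other 3 SMA libraries were female. On the second principal component of all genes SMA 3 lay apart, at -43.4 against 14.6 to 15.4 in the other SMA libraries. Muscle fibre genes were abundant in every library, with Acta1 at 37009 ± 5366 CPM in wild type and 22597 ± 3752 CPM in SMA (SD, n = 5 and 4). In whole tissue, fewer cells of a type and less RNA per cell cannot be told apart.

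**Figure D1:**
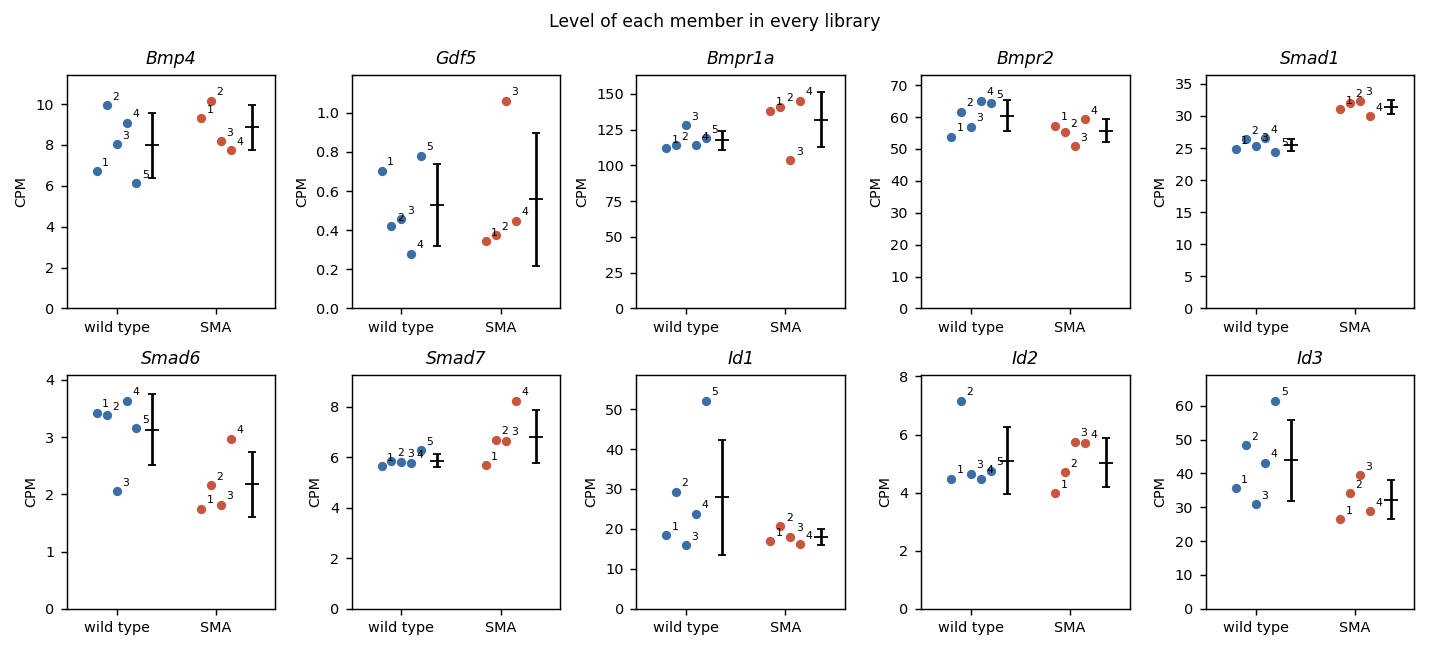
Level of each of the 10 members, in CPM on linear axes from 0, in wild type (blue) and SMA (red) libraries, with the replicate number beside each point and the mean and SD in black. The groups are apart for Smad1, at 24.5 to 26.6 against 30.0 to 32.4 CPM, and overlap for the other 9 members.

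Neither ligand passed. Bmp4, which patterns many embryonic tissues and is made by stromal and vascular cells, lies on chromosome 14 from 46383520 to 46390669. It held 6.73, 9.94, 8.04, 9.09 and 6.13 CPM in wild type libraries 1 to 5 and 9.30, 10.2, 8.19 and 7.75 CPM in SMA libraries 1 to 4. All but 1 of the SMA values lay inside the wild type range. SMA minus wild type gave a log2 fold change of 0.15 ± 0.15 (SE), at an edgeR adjusted p of 0.421 and a 95% interval from -0.17 to 0.47. It was 0.063 without wild type 5, 0.073 without SMA 2, 0.23 without wild type 2 and 0.36 under scaling to total counts, and did not pass under any alternative. In GENCODE M21 the gene Gm15217 on the opposite strand overlaps Bmp4, and it held at most 3 counts in any library. A second gene opposite Bmp4, Gm15222, had no row of that name in the deposited table. Nor had Gm15557, Gm17110 and Gm38125, which overlap Gdf5, Bmpr1a and Bmpr2. Gm38125 lies on the strand of Bmpr2, so strand would not separate their reads. The other overlapping genes lie opposite their members, and without the strand setting of the counting their reads cannot be told apart from the members'.

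Gdf5, also known as a growth factor of joints, was the least abundant member. It lies on chromosome 2 from 155941023 to 155945367. Its counts were 16, 13, 12, 8 and 22 in wild type and 12, 14, 38 and 16 in SMA, or 0.703, 0.419, 0.457, 0.280 and 0.780 CPM and 0.344, 0.373, 1.06 and 0.449 CPM. SMA 3 was the highest library, and the other 3 SMA libraries lay inside the wild type range. The difference was 0.086 ± 0.40 (SE) on the log2 scale, at an edgeR adjusted p of 0.871 and a 95% interval from -0.79 to 0.97. Without SMA 3 the log2 fold change was -0.43 (edgeR, adjusted p 0.326). The 7 cartilage and bone markers summed to 10.6 CPM in SMA 3, inside the SMA range of 8.71 to 11.9 CPM, and to 13.2 to 162 CPM in wild type. The markers differed in SMA 3. Sox9 was highest there, at 4.70 CPM against 1.37 to 2.66 in the other SMA libraries and 1.80 to 2.71 in wild type. Acan and Col2a1 were lowest there, at 0.391 and 5.06 CPM. The part of cartilage or joint tissue in the level of Gdf5 was not tested.

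The receptors did not pass. Bmpr1a, the type I receptor also named ALK3, lies on chromosome 14 from 34410734 to 34503341. It held 112, 114, 128, 114 and 119 CPM in wild type and 138, 141, 103 and 145 CPM in SMA. SMA 1, 2 and 4 lay above every wild type library and SMA 3 below every one. The log2 fold change was 0.17 ± 0.10 (SE), at an edgeR adjusted p of 0.178 and a 95% interval from -0.052 to 0.39. Without SMA 3 it was 0.27 at an adjusted p of 0.00965, and under scaling to total counts 0.40 at an adjusted p of 0.00351, both past the threshold by edgeR.

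Bmpr2, the type II receptor for BMP ligands, lies on chromosome 1 from 59763400 to 59879014. It held 53.9, 61.7, 57.0, 65.2 and 64.3 CPM in wild type and 57.3, 55.3, 50.9 and 59.3 CPM in SMA. SMA 3 was again the lowest library, and the other SMA libraries lay inside the wild type range. SMA minus wild type gave a log2 fold change of -0.12 ± 0.080 (SE), at an edgeR adjusted p of 0.230 and a 95% interval from -0.29 to 0.056. Under scaling to total counts, which shifted the median over all genes by 0.23 on the log2 scale, its sign turned to 0.11 without passing.

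Smad1, which carries the signal of the type I receptors, rose. It lies on chromosome 8 from 79338395 to 79399518, and held 24.8, 26.4, 25.3, 26.6 and 24.5 CPM in wild type and 31.1, 32.1, 32.4 and 30.0 CPM in SMA. Every SMA library lay above every wild type library, and both groups were tight, with coefficients of variation of 3.66% and 3.47% against medians of 12.9% and 12.2% over all genes tested. The difference was 0.30 ± 0.064 (SE) on the log2 scale, or 1.23-fold, at an edgeR adjusted p of 0.00188 and a 95% interval from 0.16 to 0.44. This rise was smaller than the median size of change over all genes, 0.39. Smad1 passed under all 19 alternatives, with log2 fold changes from 0.24 to 0.53.

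The inhibitory Smads, which block the pathway by feedback, lay on opposite sides of 0 and did not pass. Smad6, on chromosome 9 from 63953076 to 64022059 and the one more selective for BMP receptors, held 3.43, 3.39, 2.06, 3.64 and 3.15 CPM in wild type and 1.75, 2.16, 1.82 and 2.98 CPM in SMA. SMA 1 and SMA 3 lay below all wild type libraries, while wild type 3 was among the low libraries and SMA 4 among the high ones. The log2 fold change was -0.53 ± 0.21 (SE), at an edgeR adjusted p of 0.0518 and a 95% interval from -0.99 to -0.065. It passed under 8 of 19 alternatives, among them DESeq2 at an adjusted p of 0.0449 and limma-voom at 0.0460. With sex as a covariate the log2 fold change was -0.31 at an edgeR adjusted p of 0.369, and under scaling to total counts it was -0.30. Wild type 3, the 1 female wild type library, was the lowest of its group. In SMA the 1 male library, SMA 2 at 2.16 CPM, lay above the females SMA 1 and SMA 3 and below the female SMA 4. The part of sex in these levels was not tested apart from the covariate.

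Smad7, which also acts on the transforming growth factor beta branch, lies on chromosome 18 from 75367529 to 75395935. It held 5.63, 5.84, 5.79, 5.77 and 6.27 CPM in wild type and 5.67, 6.68, 6.65 and 8.23 CPM in SMA. SMA 2, 3 and 4 lay above every wild type library, and SMA 1 lay among them. SMA minus wild type gave a log2 fold change of 0.22 ± 0.12 (SE), at an edgeR adjusted p of 0.134 and a 95% interval from -0.036 to 0.47. It was 0.11 without SMA 4, and 0.45 under scaling to total counts, where it passed at an edgeR adjusted p of 0.0130.

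The Id genes did not pass, and Id1 and Id3 had lower means in SMA. Id1, on chromosome 2 from 152736251 to 152737410, held 18.4, 29.3, 15.9, 23.8 and 52.1 CPM in wild type and 16.9, 20.6, 18.0 and 16.2 CPM in SMA. Wild type 5 stood far above the rest, wild type 3 was the lowest of the 9 libraries, and the wild type coefficient of variation of 51.8% was the highest among the members against 10.8% in SMA. The difference was -0.64 ± 0.28 (SE) on the log2 scale, at an edgeR adjusted p of 0.0738 and a 95% interval from -1.26 to -0.023. Without wild type 5 it was -0.29 at an adjusted p of 0.164, and with sex as a covariate -0.26 at an adjusted p of 0.546. It passed by edgeR without wild type 1, at -0.76 at an adjusted p of 0.0447, and without wild type 3, at -0.79 at an adjusted p of 0.0256.

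Id3, on chromosome 4 from 136143497 to 136145755, held 35.7, 48.4, 30.8, 43.1 and 61.5 CPM in wild type and 26.5, 34.2, 39.5 and 28.9 CPM in SMA. SMA 1 and SMA 4 lay below all wild type libraries, and the other SMA libraries lay among them. The log2 fold change was -0.44 ± 0.18 (SE), at an edgeR adjusted p of 0.0579 and a 95% interval from -0.85 to -0.044. It passed under 6 of 19 alternatives, among them without SMA 3, at -0.56 at an adjusted p of 0.0259, and with wild type 1 left out (adjusted p 0.0447) or wild type 3 left out (0.0186) by edgeR. Without wild type 5 it was -0.29 at an adjusted p of 0.129, and with sex as a covariate -0.22 at an adjusted p of 0.423.

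Id2, on chromosome 12 from 25093799 to 25097140, held 4.48, 7.16, 4.65, 4.47 and 4.75 CPM in wild type and 3.98, 4.71, 5.76 and 5.70 CPM in SMA. Wild type 2 was the highest library, and SMA 3 and SMA 4 lay above the other 4 wild type libraries. SMA minus wild type gave a log2 fold change of -0.022 ± 0.17 (SE), at an edgeR adjusted p of 0.922 and a 95% interval from -0.40 to 0.35, and its sign turned under 4 alternatives without passing.

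Id1 and Id3 put the wild type libraries in the same order, 5, 2, 4, 1 and 3 from high to low. In SMA the orders differed, with SMA 2 highest for Id1 and SMA 3 highest for Id3. Within the counts of Id1, Id2 and Id3, which need no scaling, Id1 took 34.9% ± 5.31 in wild type and 32.7% ± 3.23 in SMA (SD, n = 5 and 4). Id2 took 7.08% ± 2.01 and 9.16% ± 1.47, and Id3 58.1% ± 3.71 and 58.2% ± 2.91. The ranges of all 3 shares overlapped between groups. Wild type 5 had the highest Id1 share, 44.0%, and the lowest Id2 share, 4.01%. It was also the library with the most Ucp1, the uncoupling protein gene of brown fat, at 119 CPM, where the rest of its group held 11.3 to 40.8 CPM and SMA 0.315 to 1.93 CPM. The 6 adipocyte markers summed to 726 CPM in wild type 5, 309 to 459 CPM in the rest of its group and 506 to 658 CPM in SMA. Most of that sum was Fabp4, the 1 marker of the list that rose, which capillary endothelium also expresses. The other 5 had lower means in SMA and summed to 167 CPM in wild type 5, 18.6 to 62.2 CPM in the rest of its group and 4.92 to 14.7 CPM in SMA, which turns the order of the groups round. The part of fat in the Id levels was not tested.

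**Figure D2:**
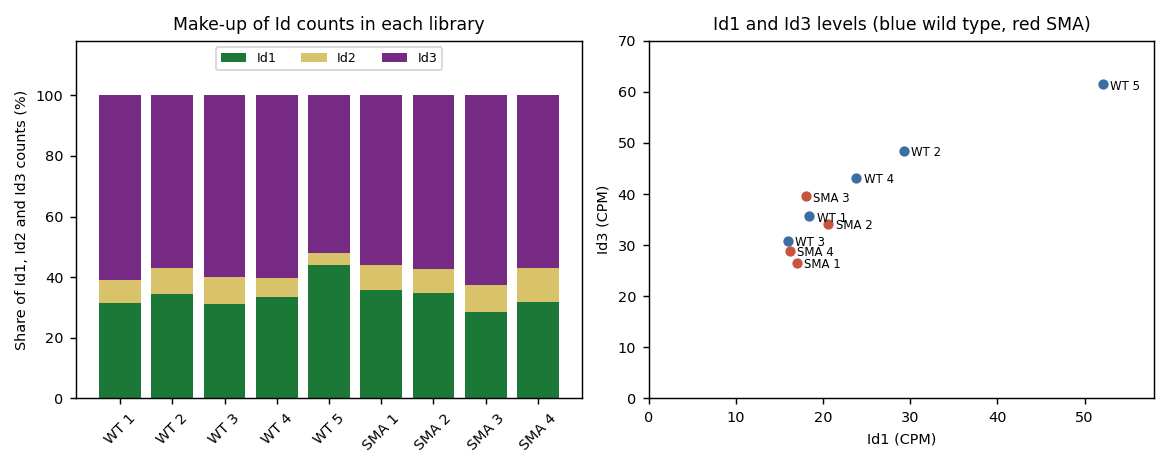
Left, share of the summed Id1, Id2 and Id3 counts (%) that each gene took in every library. Right, Id3 against Id1 in CPM with 1 point for each library, where wild type 5 (Id1 52.1 CPM, Id3 61.5 CPM) stands apart and the 4 SMA libraries lie among or below the other wild type libraries.

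Levels of different genes were compared per kilobase of merged exon of GENCODE M21. In wild type the order was Id3 at 24.5 ± 6.66, Id1 at 24.1 ± 12.5 and Bmpr1a at 18.5 ± 1.03 CPM per kilobase (SD, n = 5), and these 3 overlapped in range. They were followed by Smad1 at 4.07 ± 0.149, Bmp4 at 3.55 ± 0.705 and Bmpr2 at 3.36 ± 0.269 CPM per kilobase, of which Bmp4 overlapped both of the others. Id2 at 2.09 ± 0.474, Smad7 at 1.30 ± 0.0540, Smad6 at 0.977 ± 0.195 and Gdf5 at 0.228 ± 0.0895 CPM per kilobase came last, each apart in range from its neighbours. In SMA, Bmpr1a at 20.8 ± 3.03 CPM per kilobase came before Id3 at 18.0 ± 3.24 and Id1 at 15.5 ± 1.67 (SD, n = 4), again with overlapping ranges, and the other 7 members kept their places.

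The rest of the pathway, a list of 55 genes by role, had 44 with enough counts to be tested, of which 12 rose, 15 fell and 17 did not pass. That share of 61.4% compares with 54.9% over all genes, and the median log2 fold change was -0.0090. Of the 27 genes that passed, 18 did so under every alternative in which they were tested, which was all 19 except for Bmp3, not tested under the 1 CPM filter. The plot of fold changes by role shows that the ligands, receptors, brakes and targets each held genes on both sides of 0.

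**Figure D3:**
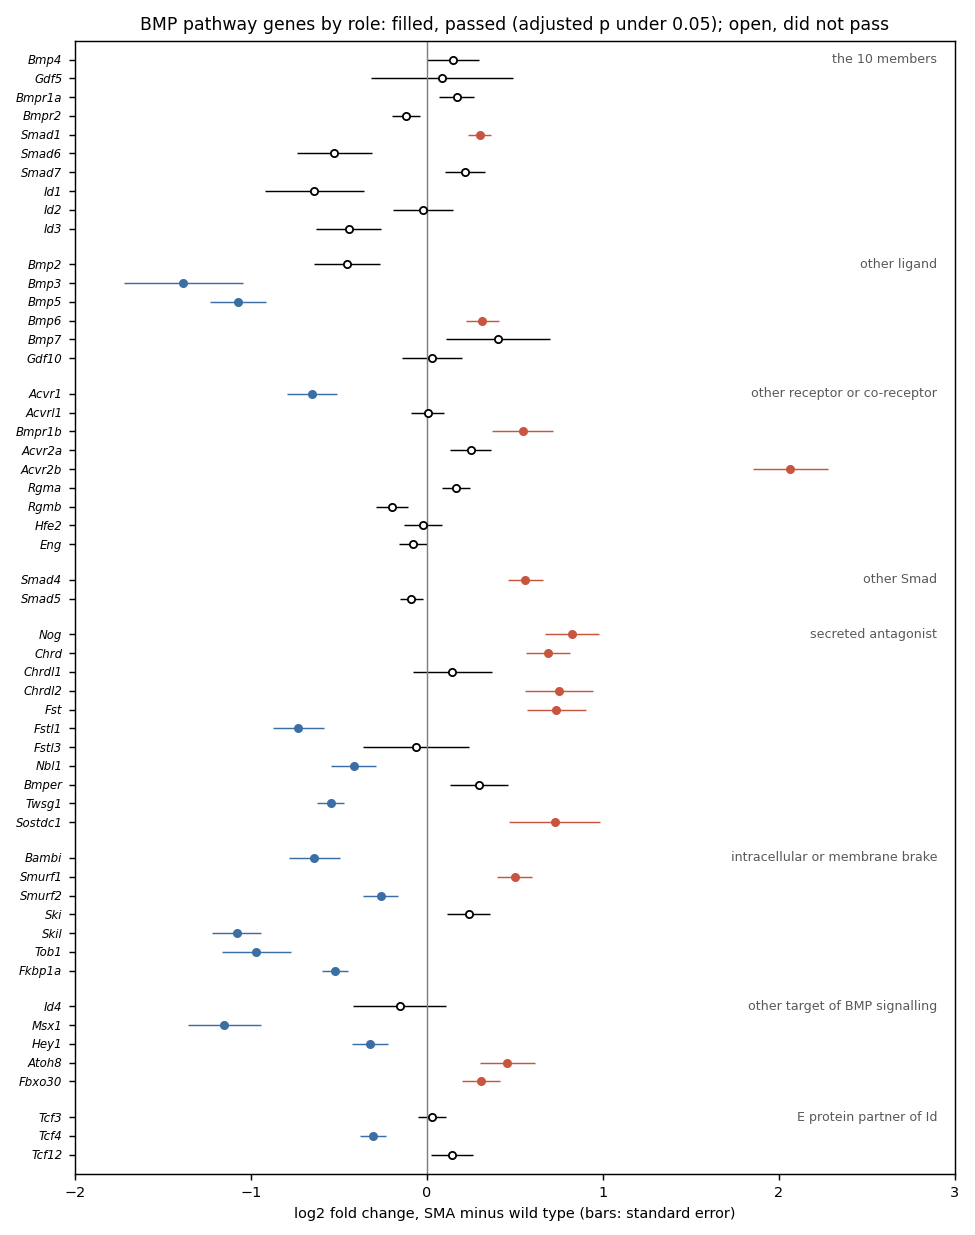
Log2 fold change of SMA minus wild type, with its standard error, for the 10 members and 43 other tested genes of the pathway, grouped by role. Filled points passed (red rose, blue fell) and open points did not pass: 1 of 10 members and 26 of 43 others are filled, with Bmp3 at -1.39 and Acvr2b at 2.06 at the ends.

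Among 6 tested ligands other than the members, 1 rose, 2 fell and 3 did not pass. Bmp5 held 4.15 to 4.75 CPM in wild type and 1.55 to 2.47 CPM in SMA, with no overlap, and fell by 1.07 ± 0.16 on the log2 scale (SE). Bmp3, which is known as an antagonist among the ligands, fell by 1.39 ± 0.34, with means of 0.959 ± 0.425 CPM in wild type and 0.362 ± 0.0783 CPM in SMA (SD, n = 5 and 4). Bmp6 rose by 0.32 ± 0.093, from 7.33 ± 0.600 to 9.12 ± 0.526 CPM. Bmp2 had a log2 fold change of -0.45 ± 0.19 and did not pass, although its groups did not overlap. Bmp10 and Gdf2, ligands of the endothelial receptor, had 0 counts in all 9 libraries, which allows at most 0.0799 to 0.132 CPM in a library (3 counts, counting error only).

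Receptors and co-receptors were mostly not called, with 2 of 9 that rose and 1 that fell. Acvr2b, a type II receptor shared by activins, myostatin and BMP ligands, held 2.46, 1.90, 2.17, 2.62 and 3.65 CPM in wild type and 11.8, 12.4, 6.71 and 12.0 CPM in SMA. It was higher in every SMA library, and rose by 2.06 ± 0.21 on the log2 scale (SE), or 4.18-fold. Acvr1, a type I receptor also named ALK2, held 19.9 to 23.7 CPM in wild type and 9.48 to 17.4 CPM in SMA and fell by 0.65 ± 0.14. Bmpr1b rose by 0.54 ± 0.17, but its call was lost with sex as a covariate, with the replicate block and without SMA 4. Hfe2, the muscle co-receptor gene now named Hjv, was at 581 ± 75.7 CPM in wild type and 572 ± 34.7 CPM in SMA (SD, n = 5 and 4) and did not pass.

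Of the other Smads, Smad4, the shared partner, rose and Smad5 did not pass. Smad4 held 37.2, 37.2, 36.5, 35.5 and 42.4 CPM in wild type and 61.1, 58.8, 43.9 and 58.6 CPM in SMA. All SMA libraries were higher, SMA 3 least so, and the log2 fold change was 0.56 ± 0.10 (SE) at an edgeR adjusted p of 5.72e-04. Smad5, which acts beside Smad1, was at 63.8 ± 1.20 and 60.0 ± 4.18 CPM (SD, n = 5 and 4), a log2 fold change of -0.088 ± 0.067. Smad9 had 4 to 15 counts in each library, too few to be tested.

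Secreted antagonists, which hold ligands away from receptors, were divided: 5 of 12 rose, 4 fell and 3 did not pass. The call of Sostdc1, which rose, was lost under 5 of 19 alternatives. That of Nbl1, which fell, was lost under 2, sex as a covariate and scaling to total counts. Nog, which encodes noggin, held 1.93 to 2.58 CPM in wild type and 3.35 to 4.58 CPM in SMA and rose by 0.83 ± 0.15 on the log2 scale (SE). Chrd, which encodes chordin, rose by 0.69 ± 0.12 and Fst, the activin and BMP antagonist follistatin, by 0.74 ± 0.17, in both cases with no overlap between groups. Twsg1, which modifies the binding of chordin, fell by 0.55 ± 0.077.

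Of 7 tested brakes inside the cell or at its membrane 5 fell, 1 rose and 1 did not pass. The call of Smurf2, at -0.26 ± 0.10 on the log2 scale (SE), was lost under 11 of 19 alternatives. Under scaling to total counts 3 of the 7 fell, Skil, Tob1 and Fkbp1a. Skil, which encodes the Smad corepressor SnoN, held 17.5 to 26.6 CPM in wild type and 7.67 to 10.9 CPM in SMA and fell by 1.08 ± 0.14 on the log2 scale (SE). Bambi, a decoy receptor and itself a BMP target, fell by 0.64 ± 0.14, a call lost under scaling to total counts at an edgeR adjusted p of 0.0809. The ubiquitin ligase gene Smurf1, whose product degrades Smad1 and Smad5, rose by 0.50 ± 0.10, with means of 31.1 ± 2.52 CPM in wild type and 44.0 ± 5.86 CPM in SMA (SD, n = 5 and 4).

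Of 5 tested targets other than the members 2 rose, 2 fell and 1 did not pass. Fbxo30, 1 of the 2 that rose, is known as a target held down by the pathway, so these counts mix induced and repressed targets. Some of these calls depended on the setting: that of Atoh8, which rose, was lost under 6 of 19 alternatives and that of Hey1, which fell, under 4, among them sex as a covariate, the replicate block and scaling to total counts. Msx1, a homeobox gene that BMP signalling is known to induce, had means of 1.79 ± 0.228 CPM in wild type and 0.804 ± 0.166 CPM in SMA (SD, n = 5 and 4) and fell by 1.15 ± 0.21 (log2, SE). Fbxo30 held 14.2, 15.1, 14.9, 15.4 and 18.6 CPM in wild type and 17.8, 23.2, 18.4 and 18.2 CPM in SMA. Only wild type 5 reached the SMA range, and the log2 fold change of 0.31 ± 0.11, at an edgeR adjusted p of 0.0271, lost its call under 5 of 19 alternatives, among them without wild type 1, 2 or 3 and without SMA 2. Id4 had a log2 fold change of -0.16 ± 0.26 and did not pass. Of the 3 E protein genes Tcf4 fell by 0.31 ± 0.074, a call lost under scaling to total counts, and Tcf3 and Tcf12 did not pass, at 0.028 ± 0.080 and 0.14 ± 0.12.

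Marker lists of other cells moved with the groups to different extents. Over all genes tested 54.9% passed, with 27.7% that rose and 27.2% that fell. The share that passed was 33.3% of endothelial, 55.6% of mural, 62.5% of macrophage and 66.7% of adipocyte markers. In the other lists it was 75% to 100%. The 12 endothelial markers, of cells that express Id1, Id3 and Smad6 strongly in textbook accounts, summed to 940 to 1146 CPM in wild type and 935 to 1150 CPM in SMA, of which 1 rose and 3 fell while 8 did not pass. Of the 9 mural cell markers 1 rose and 4 fell, with sums of 918 to 1287 and 482 to 651 CPM, in which Acta2 alone had means of 517 and 119 CPM. Of 10 fibro-adipogenic markers 1 rose and 7 fell, with sums of 3610 to 6208 and 2278 to 3212 CPM. Most of that sum was the collagen genes Col1a1 and Col3a1, and the 1 that rose was Pdgfra, at a log2 fold change of 0.34. All 6 tendon markers fell, with sums of 129 to 284 and 66.6 to 122 CPM, and no SMA library reached the wild type range. Of 8 macrophage markers 5 fell, with sums of 141 to 185 and 92.4 to 119 CPM, and of 7 cartilage and bone markers 5 were tested and 4 fell, with sums of 13.2 to 162 and 8.71 to 11.9 CPM. Of 6 adipocyte markers 1 rose and 3 fell, and the 3 red cell markers with a row fell, with sums of 1215 to 2039 and 603 to 958 CPM. Satellite cell markers had 5 of 8 that rose and 1 that fell, with sums of 223 to 282 and 305 to 348 CPM, and 7 of 8 Schwann cell markers rose, with sums of 384 to 884 and 993 to 2228 CPM. Of 8 muscle fibre markers 6 fell, with sums of 120452 to 167420 and 67994 to 82079 CPM. No listed marker with a row was at 0 in all libraries, and the part of any of these cells in the members' levels was not tested.

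The genes whose profile lay closest to each member were found by the root mean square difference of log2 CPM over the 9 libraries, after each gene was centred on its mean, among genes with a mean of at least 1 CPM. The closest to Smad1 were Trim26 at 0.031 and Pced1a at 0.031, against a spread of 0.16 of Smad1 about its own mean. The closest to Id1 was Tusc5, at 0.18 against a spread of 0.52, with 6.49 CPM in wild type 5, 1.85 to 4.19 CPM in the other wild type libraries and 1.68 to 2.18 CPM in SMA, and the next was Nedd9 at 0.24. For Id3 they were 1700049G17Rik at 0.13 and Zfp655 at 0.14, for Id2 Layn at 0.14 and BC094052 at 0.14, and for Smad6 Rpl26 at 0.15 and Gm8898 at 0.15. Bmpr1a lay closest to Zc3h11a at 0.054 and Msi2 at 0.060, Bmpr2 to Ctbp2 at 0.052 and Xiap at 0.054, and Smad7 to Utp20 at 0.078 and AK077311 at 0.083. Bmp4 lay closest to Fbln5 at 0.079 and Plscr4 at 0.089, and Gdf5, at low counts, to Atp6v1g2 at 0.31 and Ccbl2 at 0.31.

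**Figure D4:**
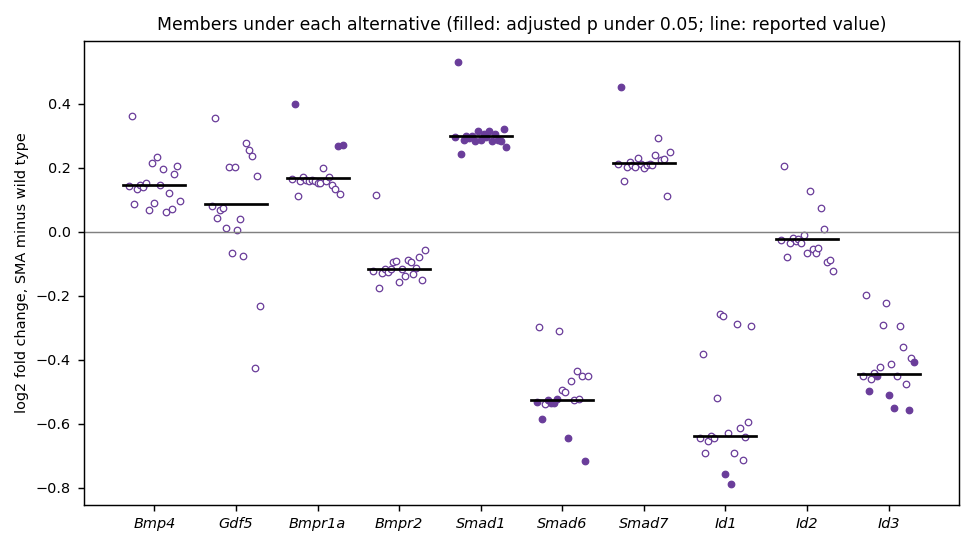
Log2 fold change of SMA minus wild type for each member under each alternative (points, filled where the adjusted p was under 0.05), with the reported value as a black line. Smad1 is filled throughout. Smad6 (8 filled), Id3 (6), Bmpr1a (3), Id1 (2) and Smad7 (1) change between filled and open, and Gdf5, Bmpr2 and Id2 have points on both sides of 0.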

How the data were processed

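The labels' protocols give 200 ng of total RNA with an integrity number above 7, a stranded mRNA preparation and paired reads of 75 bases. HTSeq 0.9.1, DESeq2 1.16.1 and the build mm10 are named in the submitters' processing notes with no role. The aligner, annotation and strand setting were not given in the sources used here. Counts per gene fill the deposited table, which covers 9 libraries and is not normalized, and a second deposited table holds a signal, each count divided by 1 factor per library from 0.734 to 1.23.

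Counts were tested in R 4.3.3 with edgeR 4.0.16 (filterByExpr, TMM scaling, quasi-likelihood fit of group over all 9 libraries, Benjamini-Hochberg adjustment over 15873 genes). DESeq2 1.42.0 and limma 3.58.1 were alternatives, beside other scalings, filters, sex, a replicate block and left-out libraries. The SE was the log2 fold change divided by the square root of F, with a prior count of 2 for log2 CPM. The procedure was tested on simulated data. Positions and exon lengths are those of GENCODE M21. No pair of replicates agreed within sampling noise. The members, lists and tests were chosen with earlier results of these data known. The text names all members, other pathway genes by role and the 2 closest profiles per member. Ucp1, Fabp4, Acta1, Acta2, Col1a1, Col3a1 and Pdgfra were picked after their values were seen. Of the other pathway genes 1 is counted but not reported here by name or drawn.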

Additional observations from a re-analysis of the deposited data

Results flagged for a closer look

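In 4 of 26 groups of values of the members 1 library lay far from the others, where chance gives about 1 in 20. SMA 3 held 1.06 CPM of Gdf5, against 0.344 to 0.449 in the other SMA libraries. SMA 3 also held 103 CPM of Bmpr1a, against 138 to 145. Wild type 2 held 7.16 CPM of Id2, where the rest of the group held 4.47 to 4.75. In wild type 5 Id1 took 44.0% of the counts of Id1, Id2 and Id3, where the rest of the group lay at 31.0% to 34.5%.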

How the results depend on the processing

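Smad1 kept its direction and its call under all 19 alternatives, at 0.28 to 0.32 with 1 library left out. Scaling to total counts lowered the genes that fell to 2164, with 6385 that rose, and raised the members that rose to 3, with Bmpr1a at 0.40 and Smad7 at 0.45 past the threshold and the signs of Bmpr2 (0.11) and Id2 (0.21) turned. Under the settings named next, 3899 to 4813 of all genes fell, of 13625 to 23215 with a p-value. Members that fell numbered 1 with DESeq2 size factors, the 1 CPM filter, limma-voom, the replicate block, and without wild type 5 and SMA 3, and 2 with upper-quartile scaling and DESeq2. They were Smad6, at -0.53 with DESeq2 size factors, the filter, limma-voom and DESeq2, -0.58 with upper-quartile scaling and -0.52 with the replicate block, and Id3, at -0.50 with upper-quartile scaling, -0.45 with DESeq2 and -0.41 without wild type 5 and SMA 3. Without these 2 libraries 2 members rose, where 4701 of 15984 genes rose. Bmpr1a at 0.27 was the second, and Gdf5 was at -0.23. Gdf5 was at -0.067 with sex as a covariate, and could not be fitted under the 1 CPM filter. With 1 library left out, 3916 to 4536 genes rose and 3739 to 4547 fell, of 15817 to 16076 tested. Of the members 1 to 2 rose and 0 to 3 fell in those fits. Their log2 fold changes ran from -0.43 to 0.28 for Gdf5 (-0.076 without wild type 4), 0.12 to 0.27 for Bmpr1a, -0.72 to -0.44 for Smad6, -0.79 to -0.29 for Id1, -0.56 to -0.29 for Id3 and -0.094 to 0.13 for Id2 (0.075 without SMA 1, 0.0084 without SMA 2). Per kilobase of exon, Id1, Id2 and Id3 took 45.8%, 4.47% and 49.7% of Id counts in wild type and 43.7%, 5.84% and 50.5% in SMA, since Id1 has the shortest exons. Apart from fewer samples or the scaling itself, the cause of these differences was not tested.

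Replicate numbers 1 to 4 are shared by the groups, but same-numbered libraries did not deviate together, with correlations of -0.048 to 0.12, and no SMA library correlated best with its own number. With the replicate block 3973 genes rose and 3899 fell. Counts of 8 to 38 limit Gdf5.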

Other observations

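SMA 3 lay nearest to wild type among the SMA libraries for Acvr2b, Smad4 and Smurf1, 3 genes picked out after the values were seen. Acvr2b was at 6.71 CPM in SMA 3, against 11.8 to 12.4 in the other SMA libraries and 1.90 to 3.65 in wild type. Smad4 was at 43.9 CPM, against 58.6 to 61.1 and 35.5 to 42.4, and Smurf1 at 35.4 CPM, against 45.5 to 48.6 and 27.9 to 33.9. Other genes of the pathway went the other way. SMA 3 was the SMA library farthest from wild type for Smad1, at 32.4 CPM against 30.0 to 32.1, and the lowest of all libraries for Acvr1, at 9.48 CPM, and for Bmpr2, at 50.9 CPM.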
